A study of Mus musculus with 8 samples.

Results

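Acyl-CoA thioesterases and medium-chain acyl-CoA synthetases were described in mouse liver through 10 genes chosen by symbol from the 23337 genes of the count files. They were 6 thioesterases, Acot1, Acot2, Acot3, Acot4, Acot9 and Acot12, and 4 synthetases, Acsm1, Acsm2, Acsm3 and Acsm5. They were listed by name as family members expressed in liver, not at random, so shares of members called are a description beside those of all genes. Further family members are counted in lists. All 10 were in every file and all 10 were among the 14328 genes with enough counts to be tested. The study sequenced liver RNA from wild-type (WT) mice and from HRD1Alb mice, in which HRD1, a ubiquitin ligase of the endoplasmic reticulum encoded by Syvn1, was deleted by floxed alleles and a Cre recombinase under the albumin promoter. That promoter is active in hepatocytes, and the study states that the deletion begins early in liver development. Which other liver cells of these mice keep the gene was not measured here. Every mouse was C57BL/6 and 12 weeks old. Livers came from mice fasted overnight or then refed for 4 h, which gave the groups WT fasted, HRD1Alb fasted, WT refed and HRD1Alb refed with 2 libraries each. The labels give the HRD1Alb genotype as Hrd1-/-. They do not say whether the 2 libraries of a group came from separate mice, so the tests measure only the spread between these libraries.

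Coenzyme A carries fatty acids as thioesters, and the pool of free coenzyme A in a cell is limited. Medium-chain acyl-CoA synthetases (Acsm) are mitochondrial enzymes that load medium-chain fatty acids and carboxylic acids such as benzoate onto coenzyme A, which in liver leads to oxidation or to conjugation with glycine. Acyl-CoA thioesterases (Acot) run the other way and release the acid and free coenzyme A. Type I thioesterases such as Acot1 to Acot4 form a gene family of closely related copies in different compartments, and several of them are known targets of PPARA, the nuclear receptor of the fasting response in liver.

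The 4 type I genes lay side by side on chromosome 12 of GRCm38 (mm10) within 72.5 kb, in the order Acot2 (chr12:83987861-83993873), Acot1 (chr12:84009490-84018371), Acot4 (chr12:84038379-84048601) and Acot3 (chr12:84052144-84060402). The 4 synthetases lay within 268.1 kb of chromosome 7, in the order Acsm5 (chr7:119519463-119545551), Acsm2 (chr7:119554340-119600690), Acsm1 (chr7:119607026-119662515) and Acsm3 (chr7:119760923-119787513). Acot12 (chr13:91741512-91786148) and Acot9 (chrX:155262443-155297654) stood alone. All 10 are on the plus strand. The coding sequences of Acot1 and Acot2 were 95.48% identical over 1239 aligned bases, with 1 identical run of 273 bases. Of the 50-base words of the Acot1 coding sequence, 43.52% also occurred in that of Acot2. Reads from such words cannot be given to 1 of the 2 genes, so values of Acot1 and Acot2 are uncertain to that extent. Acot1 and Acot3 were 83.97% identical with a run of 203 identical bases. Acot1 shared 14.12% of its 50-base words with Acot3 and 7.02% with Acot4, and Acot3 shared 9.68% with Acot4, so the same uncertainty holds to a smaller extent for Acot3 and Acot4. Words shared with genes outside the members, such as Acot5 or Acot10, were not searched, so no member is shown to be free of it. Between any 2 of the synthetases identity was 64.02% or less, with no shared 50-base word. The first coding bases show where the Acot1 and Acot2 transcripts can be told apart. The stretches below are coding bases 5 to 154 of Acot1 and 128 to 277 of Acot2, from GENCODE M21 transcripts, and capitals mark the 10 of 150 bases that differ.
Acot1: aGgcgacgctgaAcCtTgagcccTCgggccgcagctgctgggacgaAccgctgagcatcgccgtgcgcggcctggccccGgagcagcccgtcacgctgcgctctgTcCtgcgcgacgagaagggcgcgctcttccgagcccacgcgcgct
Acot2: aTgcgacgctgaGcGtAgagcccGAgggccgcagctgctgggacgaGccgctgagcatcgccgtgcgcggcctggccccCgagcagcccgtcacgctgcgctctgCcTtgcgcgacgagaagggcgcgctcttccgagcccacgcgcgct
Acot2 carries 123 further coding bases, at positions 5 to 127, that Acot1 lacks. Acot2 is the mitochondrial enzyme of the pair and Acot1 the cytosolic one, and a mitochondrial targeting sequence sits at the start of the Acot2 protein.

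The 250 bases before the RefSeq gene start (GRCm38.p6, plus strand) are shown for 4 members, Acot1, Acot2 and Acot4 as neighbours of 1 cluster and Acsm5 as a synthetase that was lower in refed HRD1Alb liver. Their windows were chr12:84009252-84009501, chr12:83987611-83987860, chr12:84038129-84038378 and chr7:119526015-119526264. Capitals mark a CCAAT box (CCAAT, or ATTGG where it lies on the other strand) or an E-box (CACGTG).
Acot1: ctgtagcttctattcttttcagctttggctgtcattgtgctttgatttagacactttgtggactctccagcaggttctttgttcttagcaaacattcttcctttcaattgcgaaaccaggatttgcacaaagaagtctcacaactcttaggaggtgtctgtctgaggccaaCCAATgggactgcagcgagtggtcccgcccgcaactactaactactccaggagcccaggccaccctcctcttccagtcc
Acot2: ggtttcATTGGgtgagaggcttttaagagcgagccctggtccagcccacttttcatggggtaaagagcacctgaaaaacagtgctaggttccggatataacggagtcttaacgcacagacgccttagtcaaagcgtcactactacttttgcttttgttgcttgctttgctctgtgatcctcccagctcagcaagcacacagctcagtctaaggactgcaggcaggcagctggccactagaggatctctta
Acot4: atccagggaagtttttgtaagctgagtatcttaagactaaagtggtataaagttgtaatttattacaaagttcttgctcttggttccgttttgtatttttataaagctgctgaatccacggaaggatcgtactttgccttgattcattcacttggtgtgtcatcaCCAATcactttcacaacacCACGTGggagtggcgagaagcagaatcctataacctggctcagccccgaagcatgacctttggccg
Acsm5: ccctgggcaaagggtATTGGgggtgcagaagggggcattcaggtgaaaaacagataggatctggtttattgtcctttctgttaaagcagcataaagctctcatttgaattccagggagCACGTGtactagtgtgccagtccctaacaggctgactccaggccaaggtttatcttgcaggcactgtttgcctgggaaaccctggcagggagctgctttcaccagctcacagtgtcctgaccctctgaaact
In RefSeq windows that ran from 250 bases before to 50 bases after a start, searched on both strands, 8 of the 10 members held CCAAT, against 37.4% of 32851 windows of the same length. The E-box was found before Acot4 and Acsm5, 2 of 10 members, against 7.15% of windows. No match overlapped another in the printed windows. The DR1 element, to which PPARA binds with RXR, was in the windows of 0 of 10 members and in 0.381% of all windows. The C/EBP-ATF response element, searched as TGATGNAAN, was in the windows of 0 of 10 members and in 3.95% of all windows. These are matches of letters in short windows and give no binding.

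The libraries held 40210576 to 49117080 counts. Levels are given as CPM, that is counts scaled to the size of each library, with library sizes adjusted by the trimmed mean of M values (TMM), and 3 counts corresponded to 0.0611 to 0.0746 CPM. Syvn1, the targeted gene, was at 111 and 99.8 CPM in WT fasted and at 32.6 and 31.5 CPM in HRD1Alb fasted liver. It was at 637 and 305 CPM in WT refed and at 453 and 132 CPM in HRD1Alb refed liver, so the library labelled HRD1Alb refed 1 was above 1 WT refed library. The genotype difference of Syvn1 did not pass the test in fasted (log2 fold change -1.72, adjusted p = 0.170) or refed liver (-0.69, adjusted p = 0.391), and Syvn1 rose with refeeding in HRD1Alb liver (3.19, adjusted p = 0.0213). The count covers the whole gene, and the deleted exons are not given in the sources used here, so whether the label of HRD1Alb refed 1 holds was not tested. Summed over 12 male-biased liver genes, this library was at 756 CPM. The other HRD1Alb libraries were at 895, 1503 and 1743 CPM and the WT libraries at 3392 to 8163 CPM. Summed over 13 female-biased genes, it was at 484 CPM, the other HRD1Alb libraries at 386 to 494 and the WT libraries at 41.7 to 126 CPM. The 2 HRD1Alb refed libraries also stood apart from each other, since longer transcripts had lower counts in HRD1Alb refed 2 relative to HRD1Alb refed 1, which does not say which of them departs. Over 14178 genes, which are not independent replicates, Spearman's rho of this ratio with length was -0.583, against -0.111 to 0.0278 in the other groups. Refed genotype differences are therefore given with and without each of these libraries. Each such fit leaves 1 HRD1Alb refed library and sees no spread within that group. Its adjusted p is therefore no evidence that a call is robust. Hepatocyte markers, summed over 10 genes, were high in all 8 libraries, at 122151 to 166411 CPM in WT and 72663 to 110315 CPM in HRD1Alb liver, and 1 of 10 (Apob) was called lower in refed HRD1Alb liver. Of 12 male-biased liver genes, 7 were lower in fasted and 8 in refed HRD1Alb liver, where 0.433% and 4.84% of all tested genes were. Of 11 female-biased genes, 3 were higher in both, where 0.921% and 7.09% of all tested genes were. Of 4 Y-linked genes, 0 were called for genotype, and Ddx3y was at 55.2 to 121 CPM in all 8 libraries. Xist, expressed from the inactive X chromosome, was at 0.0988 to 0.508 CPM. In refed HRD1Alb liver 4 of 9 stellate cell and 1 of 8 lymphocyte markers were also higher, where 7.09% of all tested genes were, with 0 of 8 endothelial and 0 of 6 cholangiocyte markers called. The part of these shifts in the members' values was not tested. In whole liver, fewer cells of a type and less RNA per cell cannot be told apart.

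Compared per kilobase of exon, Acot1 was highest in WT fasted liver at 167 ± 7.67 CPM per kb (SD, n = 2), followed by Acsm1 at 144 ± 24.2 and Acot12 at 94.5 ± 4.63 CPM per kb. Acot3 (39.8 ± 6.11), Acot2 (36.5 ± 9.50), Acsm5 (30.8 ± 0.466) and Acsm3 (29.1 ± 0.368 CPM per kb) followed, and Acot4 came after them at 17.4 ± 1.82 CPM per kb. Neighbours from Acot3 to Acsm5 in this order, and Acot1 and Acsm1, did not differ beyond their SDs. Acot9 at 1.49 ± 0.314 and Acsm2 at 0.192 ± 0.0284 CPM per kb were lowest. In WT refed liver Acsm1 was highest at 176 ± 12.2 CPM per kb, and Acot12 (53.4 ± 5.20), Acot1 (48.5 ± 15.0) and Acsm5 (45.2 ± 4.21 CPM per kb) lay within their SDs of each other. In fasted HRD1Alb liver Acot1 was again highest at 128 ± 19.3 CPM per kb. In refed HRD1Alb liver Acsm1 was highest at 123 ± 42.2 CPM per kb, within the SDs of Acot1 at 73.1 ± 33.1. Acsm2 was lowest in all 4 groups, at 0.0378 ± 0.0057 CPM per kb in HRD1Alb fasted and 0.0973 ± 0.0037 in HRD1Alb refed liver. Acsm2 values per kb depend on the transcript taken, since its exons span 6949 bases in all and its shortest coding RefSeq transcript 2051. Acsm3 values do too, with exons of 4145 bases in all and coding RefSeq transcripts of 2557 to 2755 bases. With the shortest transcript of each gene, Acsm3 was at 47.1 CPM per kb in WT fasted liver, above Acot3 (39.8), Acot2 (36.5) and Acsm5 (33.0). Its place in the order above therefore depends on the length used.

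**Figure D1:**
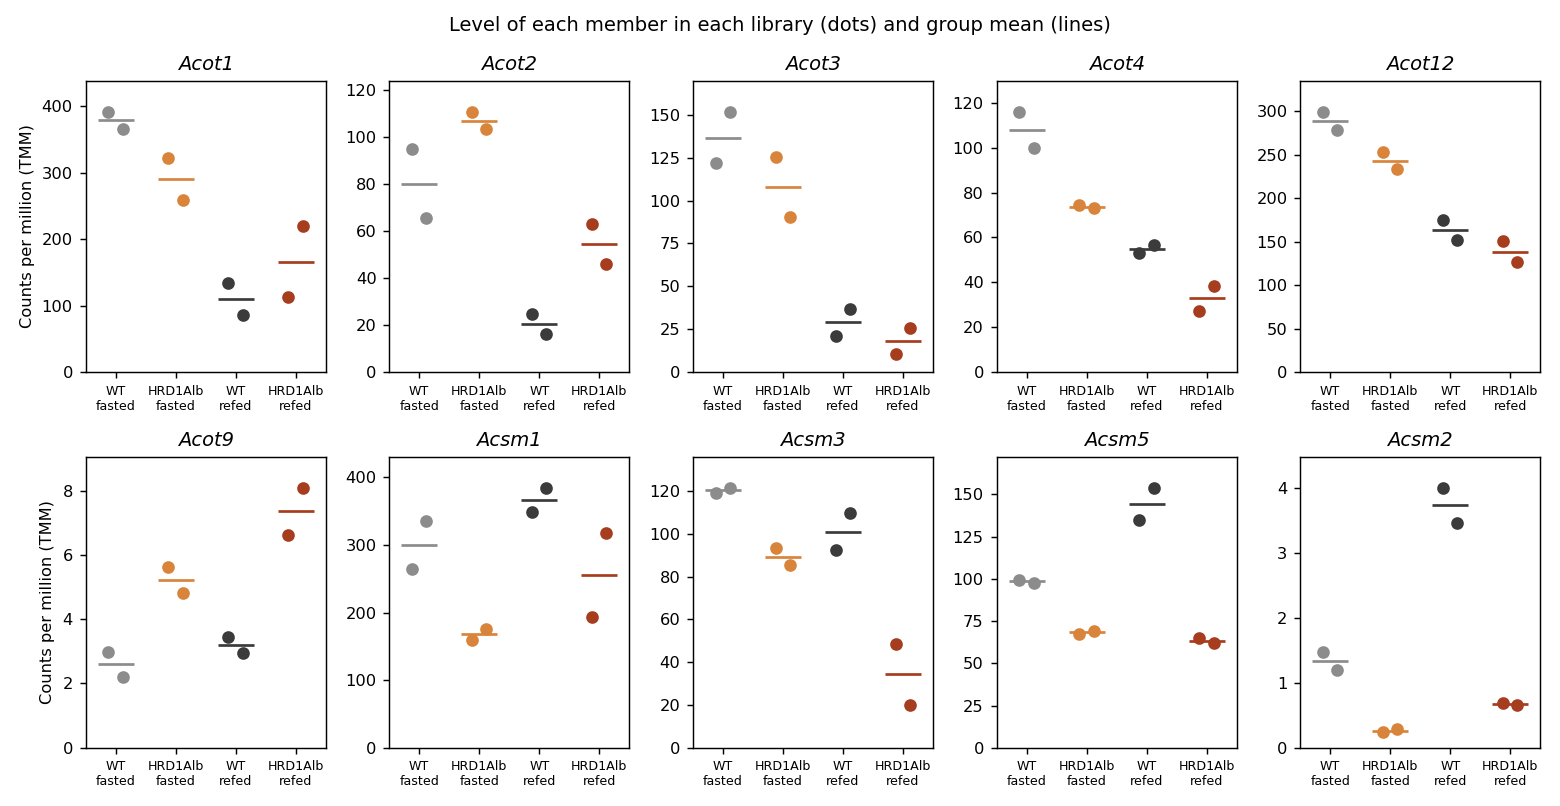
Level of each of the 10 members in each library, in CPM after TMM scaling (y axis, linear and from 0), by group (x axis), with dots for the 2 libraries and a line for their mean. Acsm1, Acsm2, Acsm3, Acsm5, Acot4 and Acot12 sat lower in both HRD1Alb libraries than in both WT libraries at each feeding state, and Acot9 sat higher. Acot1 to Acot4 and Acot12 sat lower after refeeding in both genotypes.

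In HRD1Alb against WT liver, 3 of 4 synthetases were lower in refed liver and 2 of 6 thioesterases were higher. In fasted liver 1 of 10 members was called at an adjusted p under 0.05, Acsm2, which was lower, where 1.35% of all tested genes were called, 0.433% lower and 0.921% higher. At an unadjusted p under 0.05 there were 5 of 10, against 18.4% of all tested genes. In refed liver 5 of 10 were called, where 11.9% of all tested genes were. Acot2 and Acot9 were higher, where 7.09% of genes were called higher, and Acsm2, Acsm3 and Acsm5 were lower, where 4.84% were called lower. At an unadjusted p under 0.05 there were 6 of 10, against 33.3%. In fasted liver both HRD1Alb libraries were below both WT libraries for 7 members and above them for 2, against 34.2% and 30.6% of all tested genes. In refed liver these counts were 6 and 2, against 30.1% and 30.7%. The median log2 fold change of the members was -0.41 in fasted and -0.60 in refed liver, beside -0.02 and 0.04 for all tested genes. The 10 hepatocyte markers had medians of -0.51 in fasted and -0.40 in refed liver, so a lower median was not particular to the members. Scaled by library totals without TMM, these medians of all genes were 0.36 and 0.26. The share of calls that were higher then moved from 68.0% to 94.7% of all called genes in fasted liver and from 59.4% to 87.5% in refed liver, and with a transcript length correction it was 53.8% in fasted and 49.5% in refed liver. Without TMM all 5 refed members kept their direction, and Acsm3 no longer passed. The refed count of 5 became 0 without either WT refed library, 2 without either HRD1Alb fasted library, and 8 without either HRD1Alb refed library. It was 0 when only the 4 refed libraries were fitted. The fasted count of 1 became 0 without any single fasted or WT refed library and 6 without either HRD1Alb refed library.

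With refeeding, 2 of 6 thioesterases fell in WT and 3 of 6 in HRD1Alb liver, and 1 of 4 synthetases rose in both. In WT liver 3 of 10 members were called, where 2.61% of all tested genes were. Acot1 and Acot2 fell, where 1.41% of genes fell, and Acsm2 rose, where 1.2% rose. At an unadjusted p under 0.05 there were 7 of 10, against 16.3%. In HRD1Alb liver 4 of 10 were called, where 10.5% of all tested genes were. Acot3, Acot4 and Acot12 fell, where 5.05% of genes fell, and Acsm2 rose, where 5.43% rose. At an unadjusted p under 0.05 there were 8 of 10, against 31.7%. Both comparisons of refeeding share libraries with the comparisons of genotype, so the 4 lists of calls are not independent of each other. The median log2 fold change of the members was -0.54 in WT and -0.81 in HRD1Alb liver, beside 0.00 and 0.02 for all tested genes. Without TMM the WT median of all genes was 0.15, and 68.1% rather than 46.0% of the WT calls were higher. In WT liver both refed libraries were below both fasted ones for 6 members and above for 3, against 29.6% and 30.8% of all tested genes. In HRD1Alb liver these counts were 7 and 3, against 29.5% and 29.2%. The WT count of 3 became 0 without any single fasted or WT refed library and 7 without either HRD1Alb refed library. The HRD1Alb count of 4 became 0 without either HRD1Alb fasted library, 1 without either WT refed library, 2 without either WT fasted library, and 7 and 6 without HRD1Alb refed 1 and 2. It was 0 when only the 4 HRD1Alb libraries were fitted.

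**Figure D2:**
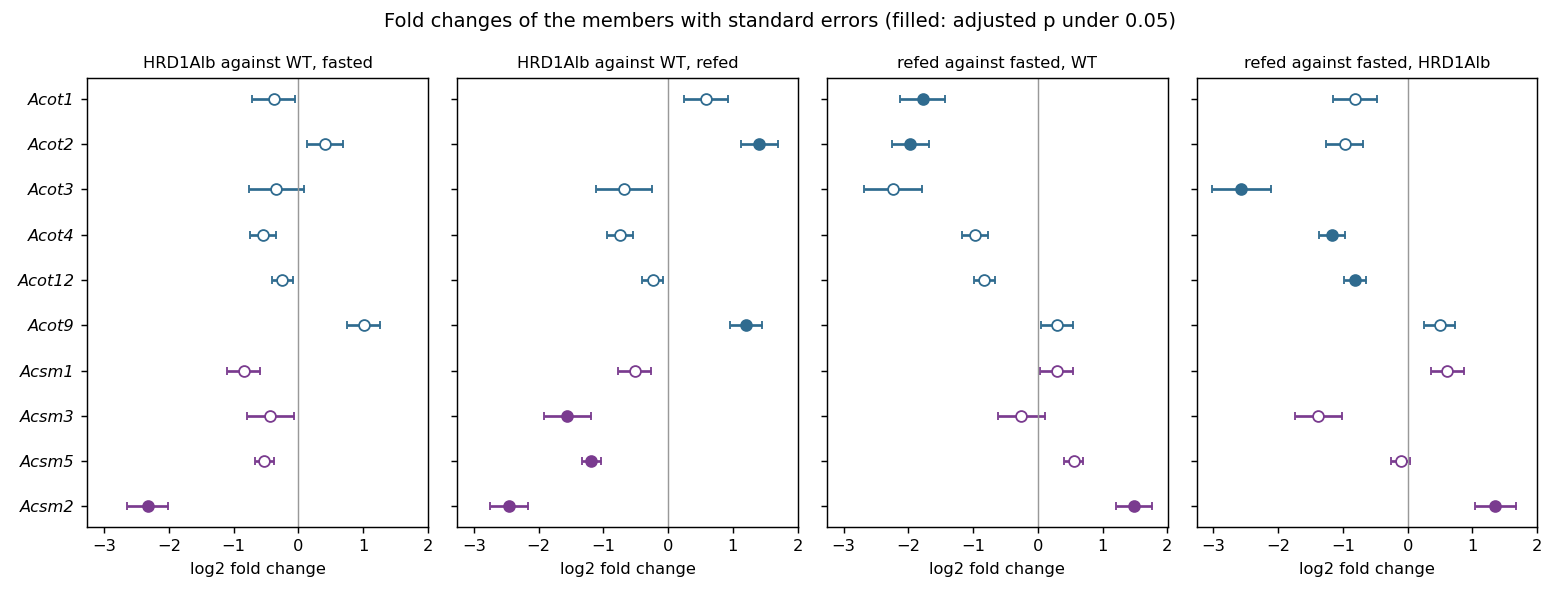
Log2 fold change of each member with its standard error from edgeR (x axis) in the 4 comparisons (panels), thioesterases in blue and synthetases in purple, filled where the adjusted p was under 0.05. The filled points are Acsm2 in all 4 panels, Acot2, Acot9, Acsm3 and Acsm5 for genotype in refed liver, Acot1 and Acot2 for refeeding in WT, and Acot3, Acot4 and Acot12 for refeeding in HRD1Alb liver.

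Among the long-chain thioesterases, Acot1, the cytosolic enzyme, was at 391 and 366 CPM in WT fasted and at 134 and 86.1 CPM in WT refed liver. With refeeding in WT liver it fell by 1.78 on the log2 scale (SE 0.35, adjusted p = 0.0474), to 0.291 of its fasted level. In HRD1Alb liver it was at 321 and 259 CPM fasted and at 113 and 219 CPM refed. Both refed values were below both fasted values, and the log2 fold change of -0.81 (SE 0.34) did not pass the test (adjusted p = 0.155). Between the genotypes the log2 difference was -0.38 (SE 0.34, adjusted p = 0.612) in fasted liver and 0.59 (SE 0.34, adjusted p = 0.253) in refed liver. HRD1Alb refed 1 lay between the 2 WT refed libraries and HRD1Alb refed 2 above both. Without HRD1Alb refed 1 the refed difference was 0.99 (adjusted p = 0.0128), and without HRD1Alb refed 2 it was 0.03 (adjusted p = 0.947).

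Acot2, the mitochondrial enzyme, was at 94.9 and 65.4 CPM in WT fasted and at 24.8 and 16.1 CPM in WT refed liver, and it fell by 1.97 on the log2 scale (SE 0.29, adjusted p = 0.0281). In HRD1Alb liver it was at 111 and 103 CPM fasted and at 62.95 and 45.97 CPM refed, a log2 fold change of -0.97 (SE 0.28, adjusted p = 0.0678). In refed liver both HRD1Alb libraries were above both WT libraries, and Acot2 was higher by 1.41 on the log2 scale (SE 0.29, adjusted p = 0.0283), a 2.66-fold difference. Without HRD1Alb refed 1 the value was 1.16 (adjusted p = 0.0103), and without HRD1Alb refed 2 it was 1.61 (adjusted p = 0.00829). In fasted liver the difference was 0.42 (SE 0.28, adjusted p = 0.488). The ratio of the 2 near-identical genes does not depend on the scaling of libraries. There were 24.3 and 17.9 Acot2 counts per 100 Acot1 counts in WT fasted, 34.4 and 39.8 in HRD1Alb fasted, 18.5 and 18.7 in WT refed, and 55.8 and 20.97 in HRD1Alb refed liver. Both HRD1Alb values were above both WT values at each feeding state, with HRD1Alb refed 2 close to WT. With the counts of Acot1 and Acot2 summed, the refed genotype difference was 0.75 (adjusted p = 0.109) and no longer passed, and with refeeding in WT the sum fell by 1.81 on the log2 scale (adjusted p = 0.0318).

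The peroxisomal members of the cluster were Acot3, which acts on long-chain acyl-CoA, and Acot4, which acts on succinyl-CoA and other dicarboxylic acyl-CoA. Acot3 was at 122 and 152 CPM in WT fasted and at 21.2 and 36.8 CPM in WT refed liver. It was at 125 and 90.2 CPM in HRD1Alb fasted and at 10.8 and 25.6 CPM in HRD1Alb refed liver. With refeeding in HRD1Alb liver it fell by 2.57 on the log2 scale (SE 0.45, adjusted p = 0.0183), and in WT liver its log2 fold change of -2.24 (SE 0.45) had an adjusted p of 0.0506. Both refed values were below both fasted values in each genotype. The genotypes overlapped at both feeding states (log2 differences of -0.34, adjusted p = 0.739, and -0.67, adjusted p = 0.298). Without HRD1Alb refed 2 the refed difference was -1.43 (adjusted p = 0.0295), and without HRD1Alb refed 1 it was -0.19 (adjusted p = 0.663). Acot4 was at 116 and 99.8 CPM in WT fasted, 74.4 and 73.0 in HRD1Alb fasted, 53.1 and 56.6 in WT refed, and 27.1 and 38.5 in HRD1Alb refed liver. The 4 groups did not overlap, in that order from high to low. With refeeding in HRD1Alb liver Acot4 fell by 1.17 on the log2 scale (SE 0.20, adjusted p = 0.0170), while the log2 fold change of -0.97 (SE 0.20) in WT liver had an adjusted p of 0.0542. The genotype difference was -0.55 (SE 0.20, adjusted p = 0.203) in fasted and -0.74 (SE 0.20, adjusted p = 0.0530) in refed liver. The refed value was -0.52 (adjusted p = 0.0117) without HRD1Alb refed 1 and -1.02 (adjusted p = 0.00344) without HRD1Alb refed 2. With a correction for transcript length, the HRD1Alb refeeding value of Acot4 was -0.73 (adjusted p = 0.143) and no longer passed.

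Acot12, a cytosolic enzyme that hydrolyses acetyl-CoA, was at 299 and 279 CPM in WT fasted and at 253 and 234 CPM in HRD1Alb fasted liver. It was at 174 and 152 CPM in WT refed and at 150 and 127 CPM in HRD1Alb refed liver. The groups lay in this order from high to low without overlap. With refeeding in HRD1Alb liver it fell by 0.81 on the log2 scale (SE 0.16, adjusted p = 0.0276), and the WT log2 fold change of -0.82 (SE 0.16) had an adjusted p of 0.0505. The genotype differences were -0.25 (SE 0.16, adjusted p = 0.480) in fasted and -0.24 (SE 0.16, adjusted p = 0.331) in refed liver. The refed difference was -0.37 (adjusted p = 0.0487) without HRD1Alb refed 1 and -0.12 (adjusted p = 0.524) without HRD1Alb refed 2.

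Acot9, a mitochondrial thioesterase outside the cluster, had the lowest mean level per kb of the 6 thioesterases in all 4 groups, though in HRD1Alb refed liver (4.20 ± 0.586 CPM per kb, SD, n = 2) it lay within the SDs of Acot4 (5.28 ± 1.30) and Acot3 (5.30 ± 3.05). It was at 2.99 and 2.21 CPM in WT fasted and at 5.63 and 4.83 CPM in HRD1Alb fasted liver, and at 3.43 and 2.94 CPM in WT refed and 6.64 and 8.09 CPM in HRD1Alb refed liver. These came from 91 to 392 counts per library. All 4 HRD1Alb libraries were above all 4 WT libraries. In refed liver Acot9 was higher by 1.21 on the log2 scale (SE 0.25, adjusted p = 0.0289), a 2.31-fold difference, and in fasted liver the difference of 1.01 (SE 0.25) had an adjusted p of 0.0983. The refed difference was 1.34 (adjusted p = 0.00312) without HRD1Alb refed 1 and 1.05 (adjusted p = 0.0231) without HRD1Alb refed 2. Refeeding gave 0.29 (adjusted p = 0.658) in WT and 0.49 (adjusted p = 0.203) in HRD1Alb liver. Markers of Kupffer cells and macrophages moved with it. Of the 8 measured markers, 1 was called higher in HRD1Alb fasted (Cd68) and 7 in HRD1Alb refed liver (among them Lyz2, Cd68 and Marco), none lower, where 0.921% and 7.09% of all tested genes were higher, and their summed level was 106 to 121 CPM in the 4 WT libraries and 267 to 537 CPM in the 4 HRD1Alb libraries. The gene with the level pattern most like Acot9 over the 8 libraries was Siglece, a lectin of myeloid cells, with a root mean square difference of 0.12 on the log2 scale. The part of macrophages in the Acot9 value was not tested.

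**Figure D3:**
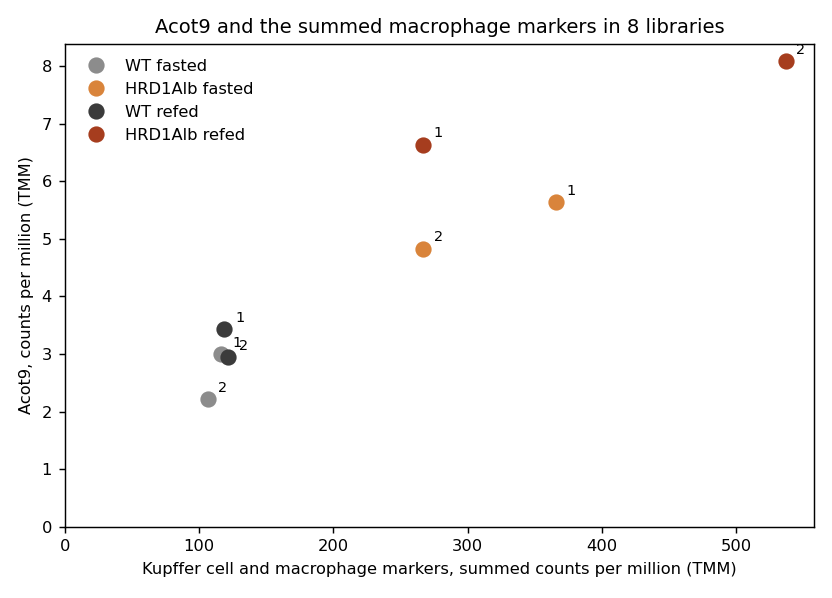
Acot9 in CPM (y axis) against the summed level of 8 Kupffer cell and macrophage markers in CPM (x axis), both after TMM scaling, 1 point per library with its replicate number. The 4 WT libraries sit between 106 and 121 CPM of markers with Acot9 at 2.21 to 3.43 CPM, and the 4 HRD1Alb libraries between 267 and 537 CPM with Acot9 at 4.83 to 8.09 CPM.

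Among the synthetases, Acsm1 had the highest mean level per kb in all 4 groups. It was at 264 and 336 CPM in WT fasted and at 159 and 176 CPM in HRD1Alb fasted liver, and at 348 and 384 CPM in WT refed and 194 and 318 CPM in HRD1Alb refed liver. Both HRD1Alb libraries were below both WT libraries at each feeding state. The log2 differences of -0.84 (SE 0.25, adjusted p = 0.146) in fasted and -0.52 (SE 0.25, adjusted p = 0.191) in refed liver did not pass the test. The refed value was -0.92 (adjusted p = 0.0117) without HRD1Alb refed 2 and -0.21 (adjusted p = 0.323) without HRD1Alb refed 1. Refeeding gave 0.29 (adjusted p = 0.667) in WT and 0.61 (adjusted p = 0.150) in HRD1Alb liver.

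Acsm3 was at 119 and 122 CPM in WT fasted, 93.3 and 85.4 in HRD1Alb fasted, 92.4 and 110 in WT refed, and 48.7 and 20.1 in HRD1Alb refed liver. In refed HRD1Alb liver it was lower by 1.55 on the log2 scale (SE 0.37, adjusted p = 0.0402), a 2.94-fold difference, although the 2 HRD1Alb libraries differed by more than the 2 of any other group. The value was -2.34 (adjusted p = 8.07e-05) without HRD1Alb refed 1 and -1.06 (adjusted p = 0.00395) without HRD1Alb refed 2. Without TMM it was -1.28 (adjusted p = 0.0888) and did not pass. In fasted liver the difference was -0.43 (SE 0.36, adjusted p = 0.589). Refeeding gave -0.25 (adjusted p = 0.821) in WT and -1.38 (SE 0.37, adjusted p = 0.0557) in HRD1Alb liver.

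Acsm5 was at 99.5 and 97.4 CPM in WT fasted and at 67.6 and 69.2 CPM in HRD1Alb fasted liver. It was at 135 and 154 CPM in WT refed and at 65.1 and 61.8 CPM in HRD1Alb refed liver. Replicates were close, and the 2 genotypes did not overlap at either feeding state. In refed HRD1Alb liver Acsm5 was lower by 1.18 on the log2 scale (SE 0.15, adjusted p = 0.00991), a 2.27-fold difference, with -1.23 (adjusted p = 0.000277) without HRD1Alb refed 1 and -1.15 (adjusted p = 0.00224) without HRD1Alb refed 2. In fasted liver the difference was -0.53 (SE 0.15, adjusted p = 0.121). Refeeding gave 0.55 (SE 0.15, adjusted p = 0.112) in WT and -0.11 (SE 0.15, adjusted p = 0.635) in HRD1Alb liver.

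Acsm2 was the scarcest member and the only one called in all 4 comparisons. It had 59 and 49 counts in WT fasted, 12 and 16 in HRD1Alb fasted, 162 and 132 in WT refed, and 41 and 30 in HRD1Alb refed liver. These were 1.47 and 1.19 CPM, 0.235 and 0.291 CPM, 4.00 and 3.47 CPM, and 0.694 and 0.658 CPM. The 4 groups did not overlap. In fasted HRD1Alb liver Acsm2 was lower by 2.33 on the log2 scale (SE 0.31, adjusted p = 0.0297), a 5.02-fold difference. In refed HRD1Alb liver it was lower by 2.46 (SE 0.29, adjusted p = 0.00896), a 5.50-fold difference. The refed value was -2.51 (adjusted p = 0.00101) without HRD1Alb refed 1 and -2.43 (adjusted p = 0.00466) without HRD1Alb refed 2. It rose with refeeding in WT by 1.49 (SE 0.28, adjusted p = 0.0432) and in HRD1Alb liver by 1.35 (SE 0.32, adjusted p = 0.0399) on the log2 scale. Without TMM the refeeding values did not pass in WT (1.63, adjusted p = 0.0528) or HRD1Alb liver (1.34, adjusted p = 0.0592), nor did the latter with limma-voom. Sampling error is larger for Acsm2 than for the other members, because its HRD1Alb fasted libraries held 12 and 16 counts.

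**Figure D4:**
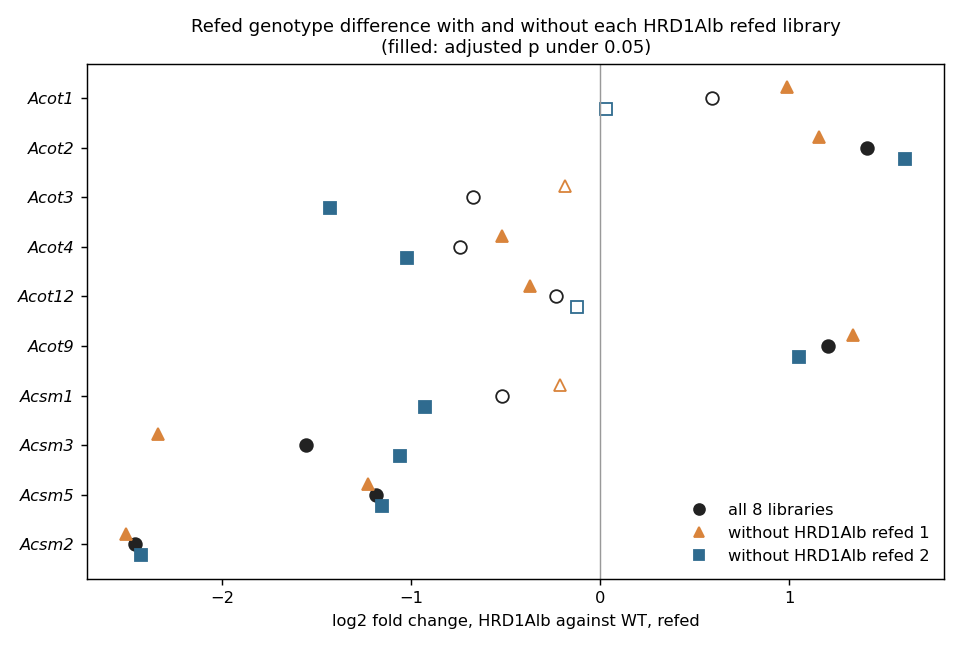
Log2 fold change of each member for HRD1Alb against WT in refed liver (x axis) with all 8 libraries (circles), without HRD1Alb refed 1 (triangles) and without HRD1Alb refed 2 (squares), filled where the adjusted p was under 0.05. Acot2, Acot9, Acsm2, Acsm3 and Acsm5, called with all 8 libraries, kept their direction in all 3 sets, from -2.51 for Acsm2 to 1.61 for Acot2. Filled points of the smaller sets come from fits with 1 HRD1Alb refed library and do not show that a call is robust. The calls were lost without either WT refed library, which is not drawn.

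Whether genotype changed the response to refeeding was tested directly as an interaction. In edgeR 0 of 10 members and 0% of all tested genes were called, with 2 members and 8.44% of all tested genes at an unadjusted p under 0.05. DESeq2 called 0 members and 105 genes in all, and limma-trend and limma-voom called 0 genes. The 2 members at an unadjusted p under 0.05 in edgeR's quasi-likelihood test were Acsm5 (difference of log2 fold changes -0.66, SE 0.21, adjusted p = 0.561) and Acot2 (0.99, SE 0.40, adjusted p = 0.585). Without HRD1Alb refed 1, 3 members were called, Acot1 at 1.37 (adjusted p = 0.0164), Acsm3 at -1.91 (adjusted p = 0.000904) and Acsm5 at -0.70 (adjusted p = 0.0125). A refeeding change that passed in 1 genotype and not in the other, as for Acot1, Acot2, Acot3, Acot4 and Acot12, is therefore not shown to differ between genotypes.

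Other genes of the same chemistry were described by lists. Of 11 tested other thioesterases and acyltransferases of the Acot and Them families, 1 was called for genotype in refed liver, against 11.9% of all tested genes. It was Acot5, a peroxisomal neighbour of Acot3, and it was higher in HRD1Alb by 2.95 on the log2 scale (SE 0.60, adjusted p = 0.0284). It stood at 0.923 and 0.779 CPM in WT fasted, 0.0247 and 0.105 in WT refed, 0.841 and 0.672 in HRD1Alb fasted, and 0.440 and 0.592 in HRD1Alb refed liver, and 1 WT refed library was below the level of 3 counts. With refeeding in WT Acot5 fell by 3.68 on the log2 scale (adjusted p = 0.0335), and Acot11 rose with refeeding in HRD1Alb liver by 1.37 (adjusted p = 0.0382). The median log2 fold changes of this list for genotype were -0.11 fasted and 0.40 refed. Of 15 tested other acyl-CoA synthetases, 2 were lower in refed HRD1Alb liver, where 4.84% of all tested genes were. These were Acsl1, the main long-chain synthetase of liver (log2 fold change -1.37, adjusted p = 0.0146), and Slc27a2, a fatty acid transporter and synthetase (-0.86, adjusted p = 0.0248). The list median was -0.03 fasted and -0.26 refed. With refeeding Acsl1 fell in WT (-1.32, adjusted p = 0.0335) and in HRD1Alb liver (-1.56, adjusted p = 0.00960). In WT liver Slc27a1 also fell and acetoacetyl-CoA synthetase Aacs rose, 2 down and 1 up of 15 where 1.41% of all tested genes fell and 1.2% rose. In HRD1Alb liver 3 fell and 1 rose, where 5.05% and 5.43% did.

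Genes that use or make the acyl-CoA of the members were also counted. The shares of all tested genes for the same calls were 4.84% lower and 7.09% higher in refed HRD1Alb liver, 1.41% down and 1.2% up with refeeding in WT, and 5.05% down and 5.43% up with refeeding in HRD1Alb liver. Glycine conjugation, which takes up products of Acsm enzymes, was described by 3 tested genes. Keg1 (log2 fold change -2.06, adjusted p = 0.0176) and Gm4952 (-0.89, adjusted p = 0.0375) were lower in refed HRD1Alb liver, and 0 were called in fasted liver. The third gene, Glyat, was not called in refed liver, at 277 and 274 CPM in WT and 204 and 342 CPM in HRD1Alb. Of 13 genes of coenzyme A synthesis and breakdown, 2 were lower in refed HRD1Alb liver, Slc25a42, the mitochondrial coenzyme A carrier (log2 fold change -1.17, adjusted p = 0.0223), and Pank1, a pantothenate kinase (-0.81, adjusted p = 0.0268). Refeeding lowered 3 of 13 in WT, Vnn1, Pank1 and Slc25a42, and 3 of 13 in HRD1Alb liver, where Nudt7, a coenzyme A hydrolase of peroxisomes, rose. Of 26 PPARA target genes, refeeding lowered 6 in WT and 10 in HRD1Alb liver and raised 0, with list medians of -0.57 and -0.56. In fasted liver Fgf21 was higher in HRD1Alb, 1 of 26, where 0.921% of all tested genes were. In refed liver Fgf21 and Angptl4 were higher and Cpt1a was lower, 3 of 26, a share close to the 11.9% of all tested genes called in either direction.

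Genes with a pattern close to a member over the 8 libraries were found by the root mean square difference of centred log2 CPM. For Acot12 the closest was Abcd3, a peroxisomal fatty acyl-CoA transporter (0.06), among the 3 closest to Acot4 was Pank1 (0.13), and for Acot1 the closest were the lipid droplet gene Plin2 (0.22) and the lipase gene Pnpla2 (0.25). For Acsm1 it was Haao (0.08), for Acsm5 Pnkd and Slc47a1 (both 0.11), for Acsm3 Bach1 (0.14), for Acot2 Mtnr1a (0.27), for Acsm2 1700027D21Rik (0.30) and for Acot3 Rab30 (0.34). Among the members themselves the closest pairs were Acot4 with Acot12 (0.32) and Acsm1 with Acsm5 (0.35). Plin2, like Acot1, fell with refeeding in WT liver (log2 fold change -1.74, adjusted p = 0.0154). These distances describe 8 libraries and were not tested.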

How the data were processed

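Liver RNA from 8 mouse samples was sequenced on an Illumina NextSeq, 1 lane per sample. The deposited files hold whole-number read counts per gene symbol, which the authors made with ERANGE according to the study's methods, while the submitters' processing notes name cutadapt, STAR, HTSeq and DESeq2 with the build mm10. Counting parameters, strand and the treatment of reads shared by several genes are not given in the sources used here. Totals were 40210576 to 49117080 counts, and this depth sets the precision of genes with few counts.

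Groups were taken from the labels. Counts were analysed with edgeR 4.0.16 in R 4.3.3, with filterByExpr (10 counts, total of 15), TMM scaling, 4 group means fitted to all 8 libraries, the quasi-likelihood F test (legacy dispersion estimate) and Benjamini-Hochberg adjustment over 14328 of 23337 genes. A call is an adjusted p under 0.05. An exact permutation test of 2 libraries against 2 cannot go below p = 0.333 and was not used. The study tested with limma's IBMT, and edgeR was used here because the files hold counts. Alternatives were DESeq2 1.42.0 and its size factors, limma 3.58.1 (trend and voom), other filters, fits on 4 libraries, a replicate block, a transcript length correction, Acot1 and Acot2 summed, and each library left out. No TMM and edgeR's newer dispersion estimate were added after seeing the data. The procedure was tested on simulated counts with the same spread in every group and no trend with transcript length. That test therefore does not cover the difference between the HRD1Alb refed libraries. Replicates differed by more than sampling noise. Over all tested genes, deviations of same-numbered libraries correlated weakly (mean r = 0.0689, from 0.0161 to 0.179, highest between the WT groups), and libraries were not paired. The summed male-biased genes did split alike by library number within a genotype. Libraries 1 and 2 were at 8163 and 5036 CPM in WT fasted and 6279 and 3392 in WT refed liver. In HRD1Alb liver they were at 895 and 1503 CPM fasted and 756 and 1743 refed. Whether same-numbered libraries share a source was not tested.

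Named genes are the 10 members, Syvn1, up to 3 called genes per list and comparison, and the 3 genes nearest to each member, of which some are printed. The members and lists were chosen with earlier results of these data known. Positions and transcripts are from GENCODE M21 (GRCm38), where 97.9% of symbols were found, and promoters from RefSeq (GRCm38.p6), where all 10 members had a window.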

Additional observations from a re-analysis of the deposited data

Results flagged for a closer look

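For Acsm5 the libraries lay on opposite sides of their fasted group after refeeding in the 2 genotypes, with neither change past the test. Of all tested genes, 30.8% lay above their fasted group in WT and 29.5% below it in HRD1Alb liver. The share of genes with both was not counted, so the pattern is not shown to be rare. Both WT refed libraries (135 and 154 CPM) were above both WT fasted libraries (99.5 and 97.4 CPM), and both HRD1Alb refed libraries (65.1 and 61.8 CPM) were below both HRD1Alb fasted libraries (67.6 and 69.2 CPM). The log2 fold changes were 0.55 (SE 0.15, adjusted p = 0.112) in WT and -0.11 (SE 0.15, adjusted p = 0.635) in HRD1Alb liver. The difference between them, the interaction, was -0.66 (SE 0.21) with an unadjusted p of 0.0140 in edgeR's quasi-likelihood test and an adjusted p of 0.561, so it did not pass over all tested genes. It was -0.70 (adjusted p = 0.0125) without HRD1Alb refed 1 and -0.62 (adjusted p = 0.124) without HRD1Alb refed 2. Groups of 2 libraries are too small for a test of single libraries that stand apart.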

How the results depend on the processing

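Each result was recomputed under other scalings, tests, filters, samples and corrections, and with each library left out. Of the values of single members under these alternatives, 811 kept their direction and their side of the threshold, 85 passed it only in the alternative, 82 passed it only as reported, and 22 changed sign, none of them called. The 1 member called for genotype in fasted liver became 4 with DESeq2, 6 with only the 4 libraries compared, 3 with the transcript length correction, 3 with that correction and the replicate block, and 2 without TMM. The 5 called in refed liver became 0 with only 4 libraries. The 3 called for refeeding in WT became 7 with DESeq2, 5 with limma-trend, 5 with no filter, 7 with only 4 libraries, 6 with the length correction, 5 with that and the block, 1 without TMM (Acot1) and 5 with the newer dispersion estimate. The 4 called for refeeding in HRD1Alb liver became 0 with only 4 libraries and 2 without TMM. With each library left out, these 4 counts ran from 0 to 6, from 0 to 8, from 0 to 7 and from 0 to 7, and that of the interaction from 0 to 3. The replicate block gave 1, 5, 3, 4 and 0. With it Acsm2 no longer passed for refeeding (adjusted p = 0.0643 in WT and 0.0569 in HRD1Alb). Under it Acot1 (adjusted p = 0.0684) and Acsm2 (adjusted p = 0.0643) no longer passed in WT refeeding and Acot3 and Acot12 did, and in HRD1Alb refeeding Acsm2 (adjusted p = 0.0569) gave way to Acot2. Counts over all genes were 194 for genotype in fasted liver (1094 with DESeq2, 2033 with 4 libraries, 119 with the block, 862 with the length correction, 730 with that and the block, 887 without TMM, 323 with no filter, and 0 to 3159 with a library left out) and 1709 in refed liver (3190, 0, 1396, 2845, 2724, 2258, 1743 and 1 to 7705). For refeeding in WT they were 374 (1086, 1882, 305, 887, 788, 238, 445 and 0 to 2508), and in HRD1Alb liver 1501 (2921, 0, 1343, 2258, 2152, 1072, 1572 and 15 to 7496). For the interaction 0 genes became 105 with DESeq2, 2 with no filter, and up to 4878 with a library left out. Signs changed for Acot3 (0.042) and Acot12 (0.13) in fasted liver without TMM, and for Acot2 in fasted liver (-0.21) when summed with Acot1. Of the interaction, signs changed with the length correction for Acot4 (0.19), Acot9 (-0.048), Acot12 (-0.0058) and Acsm2 (0.22), with that and the replicate block for Acot4 (0.16), Acot9 (-0.052), Acot12 (-0.0060) and Acsm2 (0.22), and without TMM for Acot12 (-0.14). With a library left out, interaction values ran from -0.12 to 0.13 for Acot12, from -1.08 to 0.16 for Acot3, from -0.47 to 0.034 for Acot4, from -0.035 to 0.38 for Acot9, from -0.081 to 0.63 for Acsm1 and from -0.29 to 0.026 for Acsm2. The causes were not tested. Where a library is left out, its group has 1 library, which is assumed to vary like the other groups. With 2 libraries a group the spread is estimated mostly across genes and groups, and depth limits Acsm2 most.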
